A study of Mus musculus with 6 samples.

Results

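The 51 genes described here encode parts of the spliceosome, the SR proteins that guide it and a few RNA-binding proteins that act beside it. They were named as a list of mouse symbols, and all 51 matched an entry of the count table, which holds 24594. The list was drawn up with results of this same comparison known, and it was built around Prpf38b and Cactin, which had stood out there as lower in the knockout. The fold changes of the members are therefore given as a description, with their errors and without a p-value.

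Nuclear RNA was sequenced from formaldehyde-fixed granule cell nuclei, sorted for the neuronal antigen NeuN, of the cerebellum of mice aged 7 months. The groups were 3 libraries labelled Ezh1(cKO/cKO);Neurod1-Cre (cKO), a conditional knockout of Ezh1, and 3 labelled Ezh1(wt/wt);Neurod1-Cre (WT), homozygous for the intact gene. Both groups carry the recombinase Neurod1-Cre, whose name points to the Neurod1 gene of granule neurons, so neither shows nuclei without Cre. Ezh1 encodes a catalytic subunit of the Polycomb complex PRC2, which methylates lysine 27 of histone H3, and the study asked whether postmitotic neurons need long-term upkeep of that mark for gene regulation. The labels do not say whether libraries of a genotype came from separate animals, so the errors measure the spread between these samples, which may be partly technical.

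The libraries held 6827022, 6340236 and 6530793 counts in cKO and 6682805, 7311290 and 8284768 counts in WT. Ezh1 itself stood at 53.0 ± 2.34 CPM (counts scaled to 1000000 per library) in cKO and 76.6 ± 6.19 CPM in WT (SD, n = 3 each). All 3 cKO libraries lay below all 3 WT libraries. Xist, transcribed from an inactive X, was at 831 CPM in cKO replicate 1 and 811 CPM in WT replicate 1, against 1.39 to 4.46 CPM in the other libraries, so each genotype held 1 library of that kind. The granule cell markers summed to 4894 to 5932 CPM in cKO and 5240.1 to 5384 CPM in WT, with Gabra6, Fat2 and Rbfox3 present in every library. Of other cells in the sort, oligodendrocyte markers summed to 285 to 639 CPM in cKO and 227 to 417 CPM in WT, and Purkinje cell markers to 370.4 to 540 CPM and 427 to 613 CPM. Markers of astrocytes and Bergmann glia reached 61.9 to 77.9 CPM in cKO and 64.9 to 87.6 CPM in WT, and inhibitory interneuron markers 62.1 to 81.3 CPM and 65.9 to 77.0 CPM. Unipolar brush cell markers reached 57.3 to 73.2 CPM in cKO and 52.9 to 65.4 CPM in WT, and microglial markers 16.4 to 21.1 CPM and 13.8 to 24.5 CPM. Vessel and choroid plexus markers stayed at 3.23 to 3.55 CPM in cKO and 2.51 to 3.52 CPM in WT, and Cldn5 and Ttr had no count in several libraries. These ranges overlap between the genotypes for every list. Limma-voom called 1 marker, Eomes of unipolar brush cells, higher in cKO (adjusted p below 0.05), while edgeR and DESeq2 did not. DESeq2 gave no adjusted p to 3 of 5 Purkinje cell, 4 of 5 interneuron and 4 of 5 astrocyte and Bergmann glia markers. Only 2 of 4 microglial and 1 of 4 vessel and choroid plexus markers were tested, and DESeq2 gave these no adjusted p. The part of these cells in the results below was not tested.

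Splicing removes introns in steps. The U1 particle marks the 5′ end of an intron, SF1, U2AF and the SF3 complexes of the U2 particle settle on its branch point and 3′ end, and the U4/U6.U5 tri-snRNP with its PRPF proteins then joins and is rearranged into the active enzyme. SR proteins, named for tails rich in serine and arginine, bind exons and recruit these parts, and CLK kinases phosphorylate the tails and release SR proteins from nuclear speckles. Many SR and CLK genes control their own output through exons or introns that keep a transcript in the nucleus or mark it for decay. Nuclear RNA includes such transcripts, so the levels here are not levels of cytoplasmic mRNA, and in bulk nuclei fewer cells of a type and less RNA per cell cannot be told apart.

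Across the 51 genes the cKO libraries were slightly lower than the WT libraries. The median log2 fold change, cKO over WT, was -0.12, against -0.01 over all 13115 tested genes, and 39 members were below 0 and 12 above, where 51.2% of all tested genes were below 0. Only 4 members passed the threshold of the fit over all genes (adjusted p below 0.05), all lower: Prpf38b, Cactin, Thoc2 and Ncl. Over all tested genes 0.579% were called, 0.259% lower in cKO and 0.32% higher. Neither edgeR, DESeq2 (which gave 2 members no adjusted p) nor limma-voom called a member higher, and 1 had an unadjusted p below 0.05 in that direction, Clk3 (5.8% of all tested genes). In the lower direction 13 members had an unadjusted p below 0.05 (6.05% of all tested genes). Since the list was chosen on this comparison, nothing is read from these counts. All 51 members passed the filter on low counts.

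The differences were small for nearly all members. The median absolute log2 fold change was 0.14, against 0.15 over all tested genes. For 49 of the 51 the 95% interval of the log2 fold change lay within 2-fold, Cactin and Srsf12 being the exceptions. This also held for 10621 of the 13115 tested genes. For 44 it lay between -0.5 and 0.5 on the log2 scale, which held for 45.1% of all tested genes. The members were also well measured, with a median level of 87.5 CPM against 16.5 CPM over all tested genes.

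**Figure D1:**
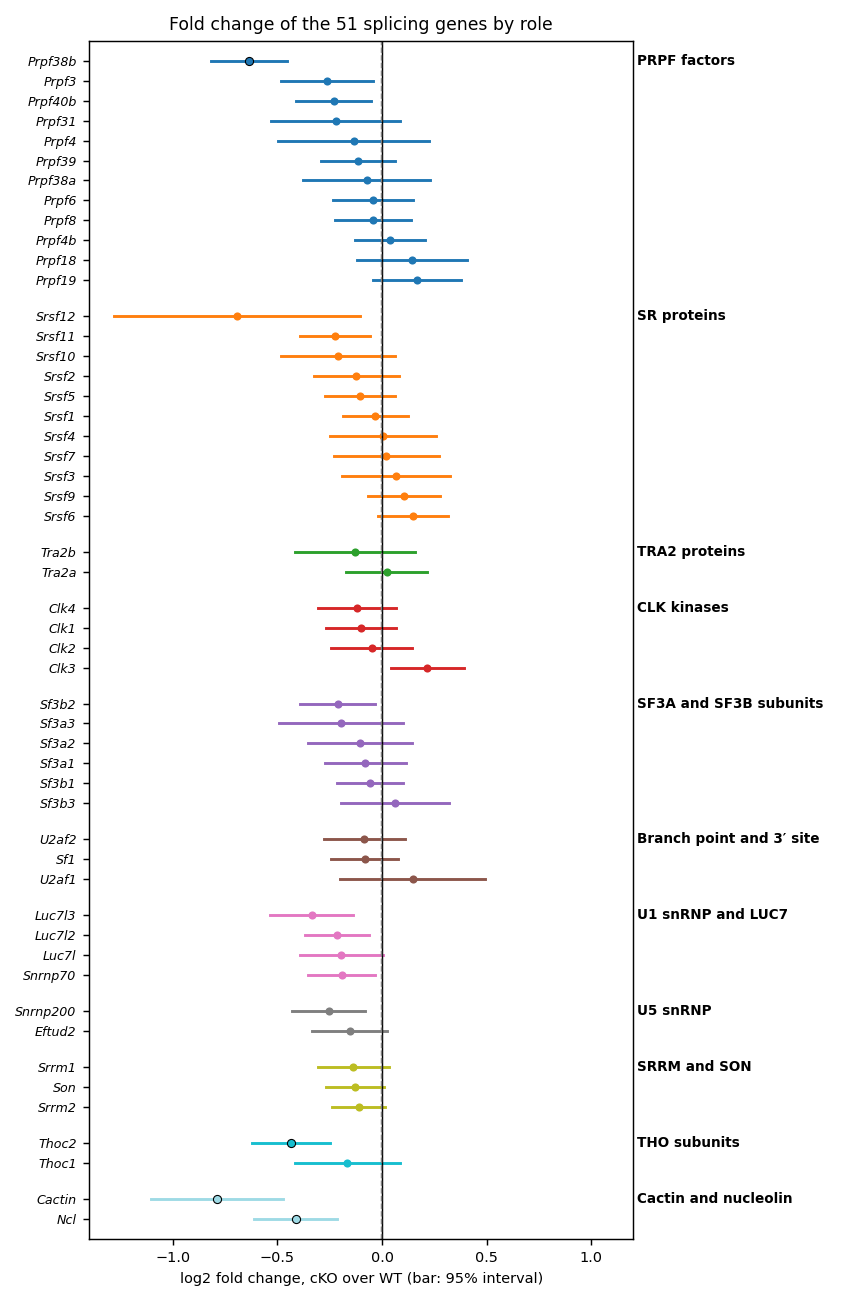
Log2 fold change, cKO over WT, of the 51 genes grouped by role, with 95% intervals as bars. The dashed line is the median of all tested genes (-0.01) and black outlines mark the 4 genes past the threshold of the fit over all genes. The 4 genes of the U1 group lie left of 0, while the 11 SR protein genes lie on both sides.

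The 4 genes called lower were measured at moderate to high counts. In the sentences that follow, values of a genotype are listed for replicates 1, 2 and 3 in that order. Prpf38b (NCBI gene 66921, chromosome 3, 108902805 to 108911729, GRCm38), which encodes a splicing factor related to yeast Prp38, a protein needed to activate the spliceosome, stood at 242, 252 and 276 CPM in cKO and 361, 466 and 371 CPM in WT. Every cKO library was below every WT library, and WT replicate 2 was the highest of the 6. The log2 fold change was -0.64 (SE 0.09), with means of 257 ± 17.1 CPM in cKO and 399 ± 57.6 CPM in WT (SD, n = 3 each), and Prpf38b alone among the members was called in the main fit and in each of the 13 other fits.

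Cactin (gene 70312, chromosome 10, 81321103 to 81326251), whose product joins the spliceosome around the catalytic steps, stood at 23.9, 25.5 and 23.4 CPM in cKO and 31.7, 53.4 and 40.4 CPM in WT. The cKO libraries lay close together and all below the WT libraries, which spread widely, with WT replicate 2 highest. Its log2 fold change of -0.79 (SE 0.15, 95% interval -1.10 to -0.47) was the most negative of the members. Without WT replicate 2 it was -0.58, and Cactin was then no longer called. The call was also lost without WT replicate 3 (log2 fold change -0.81), cKO replicate 1 (-0.78) or cKO replicate 3 (-0.76), and with limma-voom.

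Thoc2 (gene 331401, chromosome X, 41794992 to 41911937), the large scaffold subunit of the THO complex that couples splicing to mRNA export, stood at 88.1, 88.3 and 92.8 CPM in cKO and 115, 138 and 112 CPM in WT. The genotypes did not overlap, and the log2 fold change was -0.44 (SE 0.09). Thoc2 is X-linked, and replicate 1 of each genotype, where Xist was high, did not stand apart from its group. With 1 such library per genotype, a dependence of Thoc2 on this difference was not tested. The Thoc2 call was lost without cKO replicate 1 (log2 fold change -0.42), WT replicate 2 (-0.33) or WT replicate 3 (-0.49), with limma-voom and without replicate 1 of both genotypes. Thoc1 (gene 225160), another THO subunit, stood at 34.5, 31.8 and 35.2 CPM in cKO and 36.4, 41.1 and 36.5 CPM in WT. These did not overlap either, with a log2 fold change of -0.17 (SE 0.12), and Thoc1 was not called.

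Ncl (gene 17975, chromosome 1, 86344719 to 86359455) encodes nucleolin, an abundant nucleolar protein that acts in ribosome production and is no part of the spliceosome. It stood at 109.9, 125 and 121 CPM in cKO and 135, 183 and 154 CPM in WT, again without overlap and with WT replicate 2 on top. The log2 fold change was -0.41 (SE 0.10), and the call was lost without cKO replicate 1 (-0.36), cKO replicate 3 (-0.42), WT replicate 2 (-0.29) or WT replicate 3 (-0.43). It was also lost with scaling to library size alone (-0.38), with limma-voom and without replicate 1 of both genotypes (-0.46). Introns of Ncl host small nucleolar RNAs, of which Snord82 had 0 to 4 counts in a library and Snora75 had 0 counts in all 6.

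**Figure D2:**
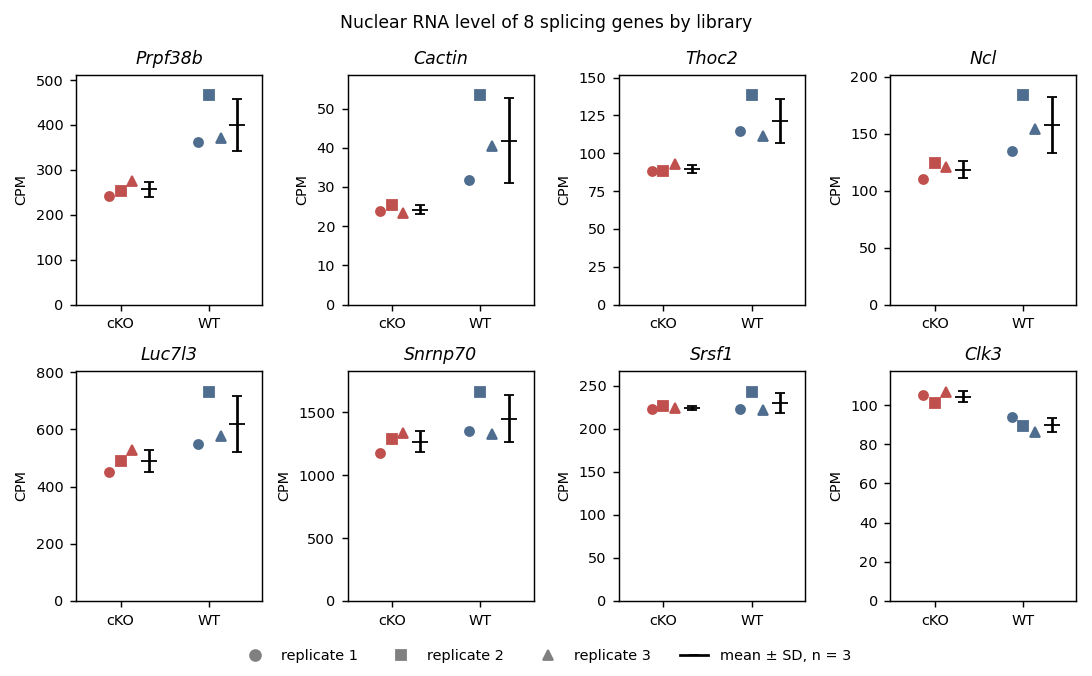
CPM of 8 genes in each library, cKO on the left and WT on the right, with marker shape giving the replicate and the bar giving mean ± SD (n = 3). Prpf38b, Cactin, Thoc2, Ncl and Luc7l3 are separated by genotype with WT replicate 2 highest, Snrnp70 and Srsf1 overlap, and Clk3 is higher in every cKO library.

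The promoters of the 4 genes called lower are shown because these genes differed in the same direction. Each window is the 250 bases before a start listed in the RefSeq promoter table (GRCm38.p6), 5′ to 3′ on the gene's strand. For Thoc2 that start is not the outermost one, and the last 36 bases of the window lie inside the gene span given above. Capitals mark matches on either strand to the core bound by ETS factors (CGGAAG), to the CCAAT box named after its letters, and to the GC box bound by SP factors (GGGCGG).
Prpf38b, chr3:108911730-108911979, minus strand: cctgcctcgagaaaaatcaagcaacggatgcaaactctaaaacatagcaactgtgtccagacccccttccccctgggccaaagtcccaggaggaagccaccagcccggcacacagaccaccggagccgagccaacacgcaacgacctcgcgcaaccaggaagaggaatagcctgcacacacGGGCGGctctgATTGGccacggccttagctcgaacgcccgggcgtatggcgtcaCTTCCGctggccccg
Cactin, chr10:81320853-81321102, plus strand: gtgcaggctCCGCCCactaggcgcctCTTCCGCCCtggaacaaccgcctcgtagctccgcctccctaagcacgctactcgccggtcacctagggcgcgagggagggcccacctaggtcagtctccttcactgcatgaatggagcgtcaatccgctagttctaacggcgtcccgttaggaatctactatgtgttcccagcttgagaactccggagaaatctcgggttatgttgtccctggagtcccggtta
Thoc2, chrX:41911902-41912151, minus strand: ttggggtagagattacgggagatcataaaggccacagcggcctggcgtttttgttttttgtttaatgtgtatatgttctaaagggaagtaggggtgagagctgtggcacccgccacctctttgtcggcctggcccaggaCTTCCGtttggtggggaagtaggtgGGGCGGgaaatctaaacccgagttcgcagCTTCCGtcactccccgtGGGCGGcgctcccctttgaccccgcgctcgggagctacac
Ncl, chr1:86359456-86359705, minus strand: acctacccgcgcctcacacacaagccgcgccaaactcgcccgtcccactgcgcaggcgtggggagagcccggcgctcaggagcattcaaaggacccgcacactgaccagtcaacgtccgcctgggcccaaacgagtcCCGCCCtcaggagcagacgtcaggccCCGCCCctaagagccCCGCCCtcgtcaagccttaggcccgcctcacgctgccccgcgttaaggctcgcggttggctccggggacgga

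All 4 windows hold at least 1 GC box, and those of Prpf38b, Cactin and Thoc2 hold the ETS core, which in Prpf38b begins 15 bases before the start. In Cactin a GC box begins inside the last 3 bases of the ETS core. Of the 51 members 45 had windows in the RefSeq table, 54 in all. The ETS core was in 44.4% of these (24 windows), against 13.6% of all 32851 windows in the table and 23.3% of the 13321 windows of tested genes. The GC box was in 68.5% of members' windows, against 32.7% of all windows and 56.3% of those of tested genes, and CCAAT in 40.7%, against 33.8% and 34.7%. The TATA box, TATAAA, was in 5.56% of members' windows (12.4% of all windows and 6.15% of those of tested genes). An E-box bound by NeuroD factors, CAGATG, was in 9.26% (14.4% and 10.0%). A motif of the factor YY1, AAGATGGC, was in 0 of the 54 windows (1.56% and 1.90%). Members' windows held a median of 21 CpG dinucleotides, against 6 over all windows and 15 over those of tested genes. These letter matches, counted on both strands, describe the sequences and do not show binding.

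Among the 12 PRPF genes, 9 had a log2 fold change below 0 and 3 above, with a median of -0.09, and Prpf38b was the 1 called. Prpf4b, a kinase of the tri-snRNP and after Prpf38b the PRPF gene with most counts, stood at 242, 237 and 251 CPM in cKO and 243, 258 and 210.5 CPM in WT. These values overlap, and the log2 fold change of 0.04 had a 95% interval of -0.13 to 0.21. Prpf3, a U4/U6 protein mutated in human inherited retinal degeneration, stood at 52.5, 58.1 and 47.9 CPM in cKO and 59.2, 70.4 and 60.6 CPM in WT (-0.26 in log2, SE 0.11). Prpf40b, related to a yeast U1 protein, stood at 164, 173 and 179.6 CPM in cKO and 195, 231 and 182 CPM in WT (-0.23, SE 0.09). Both were lower in every cKO library, each by a narrow margin, and neither was called.

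The tri-snRNP scaffold Prpf8, which forms the heart of the catalytic centre, averaged 123 ± 9.87 CPM in cKO and 127 ± 11.7 CPM in WT, a log2 fold change of -0.04. The other tri-snRNP genes Prpf4, Prpf6 and Prpf31 had log2 fold changes of -0.14, -0.04 and -0.22, all with overlapping libraries. Prpf4 was uneven in cKO, where replicate 2 was at 13.4 CPM and the other libraries at 22.6 and 23.9 CPM. Prpf38a, the mammalian counterpart of yeast Prp38 itself, lay at -0.07 on the same scale (95% interval -0.38 to 0.23). Prpf39, a U1-associated protein, lay at -0.12, lower in every cKO library by a narrow margin but not called. On the other side of 0 were Prpf18, a factor of the second catalytic step (0.14), and Prpf19, the ubiquitin ligase of the activated spliceosome (0.17). Prpf19 averaged 56.0 ± 1.71 CPM in cKO and 49.8 ± 1.56 CPM in WT (SD, n = 3 each), higher in every cKO library but not called.

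The 11 SR protein genes were spread around 0, with 6 below and 5 above and a median log2 fold change of -0.03. Without replicate 1 of both genotypes this median was -0.13. EdgeR, DESeq2 and limma-voom called 0 of them, and 2 had an unadjusted p below 0.05, where 11.9% of all tested genes did. Srsf5 and Srsf1, the SR genes with most counts, stood near their WT levels. Srsf5 was at 279, 280.1 and 304 CPM in cKO and 290.3, 348 and 291 CPM in WT. Srsf1, the founding SR protein, was at 223, 227 and 223 CPM in cKO and 223, 243 and 222 CPM in WT. The 95% interval of the log2 fold change was -0.27 to 0.06 for Srsf5 and -0.19 to 0.13 for Srsf1.

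Srsf12 showed the largest SR difference and also the lowest level of the 51 genes. It stood at 3.45, 4.48 and 7.70 CPM in cKO and 7.86, 6.69 and 10.6 CPM in WT, or 24, 29 and 50 counts against 52, 48 and 87. The genotypes overlap, since cKO replicate 3 exceeded WT replicate 2, and the log2 fold change of -0.69 carried an interval of -1.28 to -0.11. Srsf11, an activator of neuronal microexons in mouse cells, was lower in every cKO library, at 209.9, 193 and 219 CPM against 223, 262 and 241 CPM in WT (-0.22, SE 0.08). Srsf10, which turns into a general splicing repressor after heat shock, was at 23.2, 24.6 and 24.8 CPM in cKO and 28.1, 27.0 and 28.8 CPM in WT (-0.21, SE 0.13). Neither of these was called, though both were separated by genotype.

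In the opposite direction, Srsf6 was at 132, 142 and 137 CPM in cKO and 128, 127 and 116 CPM in WT, higher in every cKO library (0.15, SE 0.08). Srsf9 (0.10), Srsf3 (0.07), Srsf7 (0.02) and Srsf4 (0.00) overlapped between genotypes, as did Srsf2 (-0.12). Srsf7 was uneven within WT, where replicate 2 was at 61.7 CPM and the other libraries at 43.5 and 46.5 CPM. The SR-like genes Tra2a and Tra2b, whose products bind exonic purine-rich enhancers, also overlapped. Tra2a was at 75.7, 75.7 and 86.7 CPM in cKO and 83.7, 79.3 and 71.5 CPM in WT (0.02). Tra2b was at 30.4, 29.8 and 23.2 CPM in cKO and 30.7, 27.2 and 33.4 CPM in WT (-0.13).

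The 4 CLK kinase genes did not share a direction. Clk3 was at 105, 101 and 107 CPM in cKO and 93.8, 89.6 and 86.3 CPM in WT, higher in every cKO library, with a log2 fold change of 0.22 (SE 0.08). Clk1, whose own transcript is largely held in the nucleus with retained introns in many mammalian cells, was at 168, 158 and 172 CPM in cKO and 171, 193 and 169.8 CPM in WT (-0.10). Clk4 was at 125, 119 and 122 CPM in cKO and 119.7, 152 and 125 CPM in WT (-0.12). Apart from WT replicate 2, the WT values of both lay among or close to the cKO values. Clk2 had a log2 fold change of -0.05 with overlapping libraries. Each of the 3 tools called 0 of these kinases, and edgeR gave Clk3 alone an unadjusted p below 0.05 (11.9% of all tested genes).

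Of the 6 SF3 genes, 5 were below 0 and Sf3b3 alone above (0.06), with a median of -0.09 and none called by any of the 3 tools (1 with an unadjusted p below 0.05). Without replicate 1 of both genotypes the median was -0.15. Sf3b1, the subunit that clamps the branch point and is recurrently mutated in human blood disorders, was at 193, 197 and 200.2 CPM in cKO and 209, 205 and 201 CPM in WT. The genotypes were separated, yet the log2 fold change was -0.06 and its 95% interval ran from -0.21 to 0.10. Sf3b2 was at 115, 133 and 135 CPM in cKO and 139.8, 162 and 141 CPM in WT (-0.21, SE 0.09). Sf3a3 was at 21.7, 22.7 and 22.9 CPM in cKO and 22.5, 30.1 and 24.6 CPM in WT (-0.20, SE 0.14). Sf3a2 was at 37.6, 34.6 and 36.2 CPM in cKO and 37.2, 41.9 and 37.5 CPM in WT (-0.11). Sf3b2 did not overlap between genotypes, while Sf3a3, Sf3a2 and Sf3a1 (-0.08) did.

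The branch point and 3′ splice site genes were near 0. Sf1, which first reads the branch point, was at 182, 187 and 192 CPM in cKO and 189.6, 208 and 198 CPM in WT (-0.08). U2af2, which binds the polypyrimidine tract, was at 72.7, 73.7 and 79.1 CPM in cKO and 87.6, 79.8 and 72.0 CPM in WT (-0.09). U2af1, which reads the terminal AG, was at 15.0, 16.4 and 15.7 CPM in cKO and 13.8, 14.6 and 14.1 CPM in WT (0.15). Only U2af1 was separated by genotype, higher in cKO. The 3 tools called 0 of these genes, and 0 had an unadjusted p below 0.05 (11.9% of all tested genes).

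All 4 U1 genes lay below 0, with log2 fold changes between -0.34 and -0.19 and a median of -0.21. Luc7l3, one of the mammalian relatives of yeast Luc7 that influence 5′ splice site choice, was at 451, 491 and 529 CPM in cKO and 548, 732 and 578 CPM in WT. Its log2 fold change was -0.34 (SE 0.09) and -0.20 without WT replicate 2, and it was called without WT replicate 1 and with no filter on low counts. Luc7l2 was at 260.3, 269.8 and 278 CPM in cKO and 299, 326 and 315 CPM in WT (-0.22, SE 0.07). Both were lower in every cKO library. Luc7l was at 80.9, 72.1 and 82.8 CPM in cKO and 79.6, 102 and 88.4 CPM in WT (-0.19), with WT replicate 1 inside the cKO range. Snrnp70, the U1 protein that contacts SR proteins, was at 1179, 1286 and 1339 CPM in cKO and 1354, 1664 and 1329.6 CPM in WT (-0.19, SE 0.08), so WT replicate 3 lay just below the highest cKO library. The 3 tools called 0 U1 genes, and 3 had an unadjusted p below 0.05, all lower, where 6.05% of all tested genes did.

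Of the U5 genes, Snrnp200, the helicase that unwinds U4 from U6, was at 109, 107 and 105 CPM in cKO and 116, 137 and 130.3 CPM in WT (-0.25, SE 0.09). Eftud2, the GTPase beside it, was at 93.7, 100.1 and 97.7 CPM in cKO and 97.3, 112 and 115 CPM in WT (-0.15, SE 0.09). Snrnp200 was separated by genotype and Eftud2 was not, and neither was called.

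The scaffold genes of nuclear speckles, the bodies that store splicing factors, were among the most abundant members. Srrm2 was at 1754, 1727 and 1772 CPM in cKO and 1735, 1990.4 and 1950.1 CPM in WT (-0.11, SE 0.06). Son was at 693, 728 and 752 CPM in cKO and 745, 824 and 808 CPM in WT (-0.13, SE 0.07). Srrm1, a splicing coactivator, was at 274, 261 and 309 CPM in cKO and 292, 337 and 297 CPM in WT (-0.14, SE 0.08). In all 3 genes WT replicate 2 was the highest library, WT replicate 1 lay within the cKO range, and none was called by any tool.

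Summed over their members, the 4 groups the list was set up to compare stood as follows. The PRPF genes summed to 1126, 1156 and 1224 CPM in cKO and 1285, 1514 and 1269 CPM in WT, a ratio of means of 0.862. Without Prpf38b, on which the list was built, the other 11 summed to 884, 903 and 948 CPM in cKO and 924, 1049 and 898 CPM in WT (ratio 0.953), and the genotypes overlapped, a split chosen after seeing the data. The SR genes summed to 1187, 1188 and 1232 CPM in cKO and 1201, 1349 and 1212 CPM in WT (ratio 0.959). The CLK genes summed to 470.2, 458 and 467 CPM in cKO and 460.1, 514 and 454 CPM in WT (0.978), and the SF3 genes to 480.4, 490.4 and 513 CPM against 521, 557 and 517 CPM in WT (0.930). The SF3 sums were lower in every cKO library by a narrow margin, while the SR and CLK sums overlapped. No contrast between the groups is read from these sums, since the list was chosen on this comparison. The 51 genes together summed to 8790.1, 8987 and 9369 CPM in cKO and 9457, 10982 and 9795 CPM in WT (0.898).

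**Figure D3:**
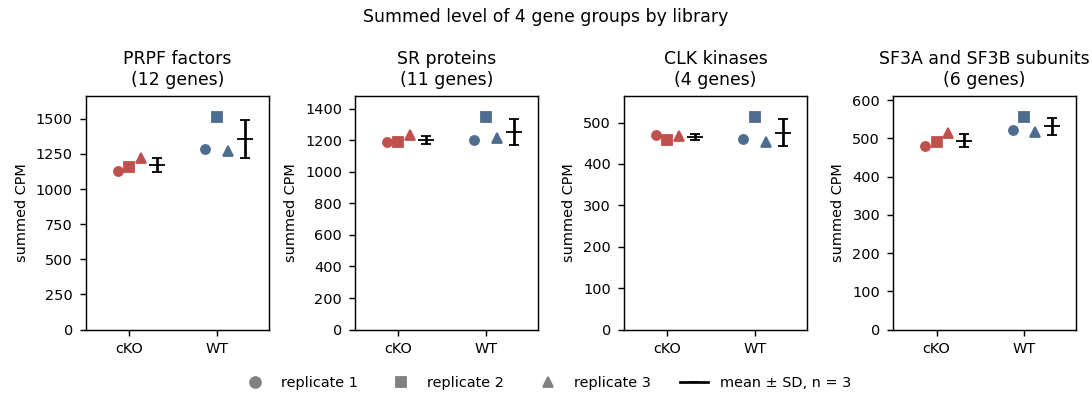
Summed CPM of the PRPF, SR, CLK and SF3 genes in each library, cKO on the left and WT on the right, with mean ± SD (n = 3). WT replicate 2 is the highest library in every panel, and the cKO and WT points overlap for the SR and CLK genes.

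WT replicate 2 stood apart for this set. It was the highest of the 6 libraries for 31 of the 51 genes (60.8%), against 21.6% of all tested genes, and cKO replicate 1 was the lowest for 19. The median member in WT replicate 2 lay 0.16 above its own mean over the libraries on the log2 scale, WT replicate 3 lay 0.04 above and WT replicate 1 at -0.01, and the cKO libraries lay at -0.08, -0.07 and -0.01. Over all tested genes these medians were between 0.00 and 0.01. Without WT replicate 2 the median log2 fold change of the members was -0.07, with 37 of 51 below 0, and only Prpf38b was called. Only Prpf38b was likewise called without cKO replicate 1 or without WT replicate 3, and 2 members without cKO replicate 3, while without WT replicate 1 or cKO replicate 2 there were 5 and 4.

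**Figure D4:**
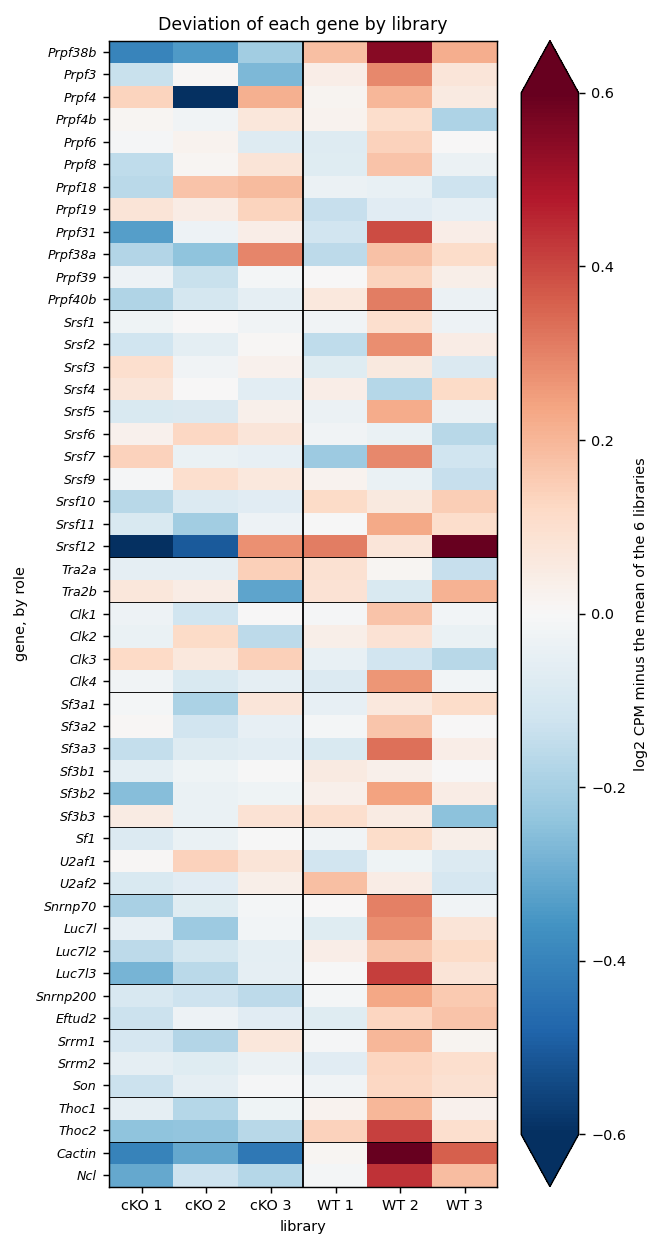
Log2 CPM of each gene minus its mean over the 6 libraries, with genes in rows by role and cKO libraries left of WT libraries (red above the mean, blue below it). The WT 2 column is the reddest, and Cactin, Prpf38b, Thoc2 and Ncl are blue in all cKO columns, as are other genes such as Luc7l2 and Snrnp200.

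Every cKO library was below every WT library for 15 members (29.4%) and above for 4, where 8.39% of all tested genes were separated downward and 7.88% upward. The count below was 17 without WT replicate 2, when 12.3% of all tested genes were separated that way, and 24 without WT replicate 1 and 23 without cKO replicate 3 (15.5% and 13.9% of all tested genes). Leaving out a library can keep or raise this count but not lower it. The library composition also differed: the 4 entries with most counts took 32.7% to 35.4% of a library in cKO and 35.5% to 35.8% in WT. With these entries left out before scaling, the same 4 members were called and the median log2 fold change of the members was -0.11.

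Levels can be compared between genes only per length, here in CPM per kb of annotated exon (GENCODE M21), though the files do not say whether reads in introns were counted. On this scale Snrnp70 ranked first, at 166 ± 10.7 in cKO and 190.2 ± 24.4 in WT, followed by Srrm2 (136 ± 1.75 and 147 ± 10.7). Then came Luc7l3 (67.3 ± 5.32 in cKO and 85.1 ± 13.5 in WT), Srsf5 (72.2 ± 3.50 and 77.6 ± 8.25) and Srsf9 (70.4 ± 2.73 and 65.6 ± 3.57), which lay close together in cKO. In WT the spread of Srsf9 lay below those of Luc7l3 and Srsf5. Srsf12 ranked last at 1.65 ± 0.70 in cKO and 2.66 ± 0.63 in WT, below Tra2b (3.01 ± 0.43 and 3.29 ± 0.34). Per kb of gene span, introns included, Snrnp70 again ranked first and Srsf12 last, while Srsf5 moved ahead of Srrm2. The median member stood at 14.1 CPM per exon kb, against 4.01 over the tested genes with an exon length. By group the medians were 8.79 for PRPF, 26.6 for SR, 17.6 for CLK, 13.3 for SF3 and 50.2 for the U1 genes.

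**Figure D5:**
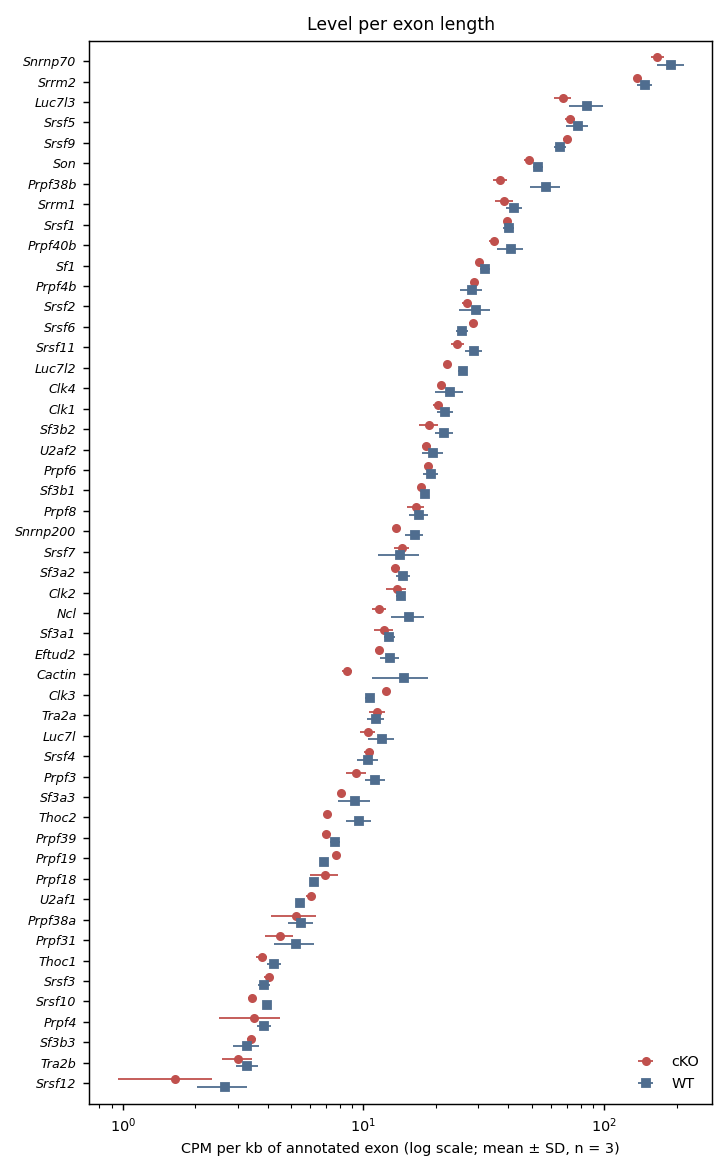
CPM per kb of annotated exon on a log axis for the 51 genes, mean ± SD of 3 libraries, cKO drawn above WT for each gene. Snrnp70 and Srrm2 stand above the rest, and most genes lie between 3 and 70.

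Several members overlap other genes, and the sources do not say how shared or multi-mapping reads were counted. Prpf38b, Cactin and Thoc2 overlapped no annotated gene. Donson, which shares 12337 bases with Son on the opposite strand, had 182 to 228 counts in a cKO library and 200 to 251 in a WT library, against 4716 to 4888 and 4933 to 6653 for Son. Prpf40b shares 6700 bases with Fam186b (48 to 59 counts in cKO and 50 to 57 in WT). SR and LUC7 genes have close relatives or processed pseudogenes, so their counts may include or lack reads of near-identical copies.

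The splicing genes outside the list were set beside it by 9 lists covering the Sm ring, other snRNP proteins, the PRP19 complex, SR kinases, RS-domain proteins, hnRNP proteins, export factors and the minor spliceosome. The count table held 193 of their genes, and 186 were tested. The median log2 fold change was -0.10, with 142 of 186 below 0. EdgeR called 1 lower and 0 higher, against 0.259% and 0.32% of all tested genes, with 35 and 3 at an unadjusted p below 0.05 (6.05% and 5.8% of all tested genes). DESeq2 called 6 lower, giving no adjusted p to 57 of the 186, and limma-voom called 1 lower. EdgeR called 12 lower without WT replicate 1, 2 (Rbm25 and Rsrp1) without cKO replicate 3, and 0 with each of the other 4 libraries left out in turn. WT replicate 2 was the highest library for 94 of the 186 genes (50.5%), against 21.6% of all tested genes. Every cKO library was below every WT library for 34 (18.3%), against 8.39% of all tested genes. Every cKO library was above for 5 (2.69%), against 7.88%. Splicing genes outside the list thus had a median close to that of the members, in the same libraries.

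The 1 gene outside the list that edgeR called was Cwc27, a cyclophilin-like protein of the activated spliceosome. It fell to 22.7, 23.6 and 27.1 CPM in cKO, against 33.8, 44.3 and 32.9 CPM in WT, without overlap (-0.60 in log2, SE 0.14, edgeR adjusted p = 0.0409). Its adjusted p over the alternatives ran from 0.00362 to 0.387, and the call was lost without cKO replicate 1 (0.269), cKO replicate 2 (0.0755), cKO replicate 3 (0.0520), WT replicate 2 (0.387) or WT replicate 3 (0.0957). It was also lost with limma-voom (0.103), with replicate number as a block (0.0746) and without replicate 1 of both genotypes (0.154). Of the 38 tested genes of the PRP19 complex and catalytic steps, 33 were below 0 (median -0.12).

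The RS-domain and speckle proteins outside the list held the most genes near the threshold. Of 35 tested, 26 were below 0 (median -0.15), and 0 were called by edgeR. An unadjusted p below 0.05 was reached by 15 lower and 2 higher, against 6.05% and 5.8% of all tested genes. DESeq2 called 5 lower (Pnn, Rbm25, Rbm39, Rsrp1 and Zranb2) and limma-voom 1 (Rbm25). Rbm25, a regulator of 5′ splice site use, was at 350.2, 364 and 424 CPM in cKO and 482, 653 and 499 CPM in WT (-0.52 in log2, SE 0.11, edgeR adjusted p = 0.0708). The genotypes did not overlap, and WT replicate 2 was again highest. Rsrp1 was at 129, 126 and 160.4 CPM in cKO and 159, 195 and 192 CPM in WT (-0.39, SE 0.10, adjusted p = 0.0740), with cKO replicate 3 just above WT replicate 1.

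In the other lists outside the members each of the 3 tools called 0 genes, though DESeq2 left many without an adjusted p (12 of 13 Sm and LSm genes). The counts at an unadjusted p below 0.05, here and in the next paragraph, stand beside 11.9% of all tested genes. Among 27 hnRNP genes, whose products often oppose SR proteins, 21 were below 0 (median -0.11) and 4 had an unadjusted p below 0.05, led by Hnrnpul2 (147 ± 6.53 CPM in cKO and 185 ± 22.9 CPM in WT, adjusted p = 0.0866) and Taf15 (176 ± 6.83 and 219 ± 28.3 CPM, 0.0988). Among 13 tested tri-snRNP genes 10 were below 0 (median -0.12) and 3 had an unadjusted p below 0.05, led by Sart1 (123 ± 3.28 and 156 ± 17.9 CPM, 0.0775) and Ddx23 (145 ± 12.8 and 171 ± 17.1 CPM, 0.240). Among 13 tested Sm and LSm genes 10 were below 0 (median -0.12) and 2 had an unadjusted p below 0.05, Lsm7 (24.4 ± 1.17 and 34.4 ± 4.91 CPM, 0.0987) and Snrpd1 (4.55 ± 0.83 and 6.80 ± 0.92 CPM, 0.407).

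Other U1 and U2 proteins had 14 of 20 below 0 (median -0.05, 1 at an unadjusted p below 0.05), with Htatsf1 at an adjusted p of 0.374 (log2 fold change -0.30) and Rbm17 at 0.532 (0.20). Exon junction and export genes had 18 of 24 below 0 (median -0.12, 2 at an unadjusted p below 0.05), with Upf3b at an adjusted p of 0.169 (-0.38) and Upf3a at 0.335 (-0.47). The minor spliceosome had 8 of 10 below 0 (median -0.03, 1 at an unadjusted p below 0.05), with Zrsr1 at an adjusted p of 0.398 (-0.26) and Zrsr2 at 0.563 (-0.23). The SR kinases outside the CLK family went the other way in the median (0.06), with 4 of 6 above 0 and 1 at an unadjusted p below 0.05. Of these Dyrk1b, a kinase of the DYRK family, was at 93.7, 105 and 88.7 CPM in cKO and 83.9, 77.9 and 72.0 CPM in WT (log2 fold change 0.30, adjusted p = 0.146), higher in every cKO library, and Dyrk2 differed by 0.31 in log2 (adjusted p = 0.627).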

How the data were processed

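The authors deposited 1 table of whole-number counts per NCBI gene identifier, not normalized, with 1 column for each of the 6 libraries. The submitters' processing notes name Subread and the mm10 build. Version, annotation, feature type, strand setting and the treatment of multi-mapping reads were not given in the sources used here. Identifiers were matched to RefSeq GRCm38.p6 (24570 of 24594). One unmatched entry took 24.5% to 26.7% of a library and stayed in the library sizes.

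Genes were filtered with filterByExpr of edgeR 4.0.16 (R 4.3.3), scaled by TMM (factors 0.982 to 1.02) and tested with robust quasi-likelihood fits over all 6 libraries with genotype as the only term. Adjusted p-values are two-sided Benjamini-Hochberg values over 13115 genes, with a threshold of 0.05. Standard errors and 95% intervals come from the same fit. CPM are counts scaled to the library total times its TMM factor, given as mean ± SD. DESeq2 1.42.0 and limma-voom (limma 3.58.1) were alternatives. The code was tested on simulated data.

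The members and lists were chosen with earlier results of these data known. Members were named library by library if they were Prpf38b or Cactin, among the 3 largest absolute fold changes of their role group or among its 2 most abundant. Library values of Prpf4, Srsf6 and Srsf7 were added after they were seen. In each other list the called genes or the 2 with smallest p were named. A planned list of RS-rich proteins was not analysed here. Correlations of the deviations of same-numbered libraries were 0.15, 0.01 and -0.04, and those of other pairs ran from -0.10 to 0.11. With 3 libraries per genotype these values cannot tell whether same-numbered libraries were paired. Replicates were not copies of one library, since their counts differed by more than sampling (chi-square over its degrees of freedom 4.03 to 5.00).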

Additional observations from a re-analysis of the deposited data

How the results depend on the processing

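Over all tested genes 42 were called higher and 34 lower. Limma-voom gave 23 and 19, no filter on low counts 146 and 131, leaving out replicate 1 of both genotypes 23 and 20, library size alone 69 higher, and leaving out 1 library 10 to 116 higher and 3 to 133 lower. Of the members 4 were called lower, 1 with limma-voom, 3 with library size alone (not Ncl), 5 with no filter (adding Luc7l3), 2 without replicate 1 of both genotypes and 1 to 5 when 1 library was left out. Of the other splicing genes 1 was called lower, 6 with DESeq2, 2 with library size alone, 14 with no filter, 0 without replicate 1 of both genotypes and 0 to 12 when 1 library was left out. With replicate number as a block 5 of these were called (Pnn, Rbm25, Rbm39, Rsrp1 and Zranb2, not Cwc27), and the same 4 members. The block also called Hsph1 (log2 fold change 0.97, adjusted p = 0.0015) and Cirbp (-0.46, 0.0237), but whether shared numbers pair the libraries could not be told. Leaving out replicate 1 of both genotypes moved the median log2 fold change of SR genes to -0.13 and of SF3 genes to -0.15, and when 1 library was left out the medians ran from -0.17 to -0.04 for PRPF, -0.08 to -0.01 for SR, -0.11 to -0.01 for CLK, -0.13 to -0.06 for SF3 and -0.26 to -0.14 for U1. The number of members with every cKO library below every WT library, an alternative chosen after seeing the data, ran from 16 to 24 when 1 library was left out. Leaving out a library cannot lower this count, so it does not test how far the separation rests on single libraries. The share of all tested genes was then 12.3% to 15.5%, against 8.39% with all 6. The called members kept their direction in all 13 alternatives. The causes were not tested. The alternative using RS-rich proteins was not run. Depth limits the members with few counts most, such as Srsf12 with 24 to 87 counts in a library.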

Other observations

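Genes that follow temperature or time of day were also counted, since splicing factors are known to respond to both. Of 15 tested, 7 were below 0 (median log2 fold change 0.02), and 1 had an unadjusted p below 0.05 (11.9% of all tested genes). None passed the threshold in the main edgeR fit, DESeq2 (no adjusted p for 3) or limma-voom. Cirbp, a cold-induced RNA-binding protein, was at 55.0, 78.0 and 70.8 CPM in cKO and 78.7, 110.5 and 90.7 CPM in WT (log2 fold change -0.46, adjusted p = 0.185), lower in every cKO library. It was called without WT replicate 1 (0.0235), without cKO replicate 2 (0.0456), with no filter on low counts (0.00104) and with replicate number as a block (0.0237). Hsph1, a heat shock protein, was at 56.7, 25.3 and 39.6 CPM in cKO and 27.8, 14.9 and 18.7 CPM in WT (0.99, adjusted p = 0.446), with overlap. Hsph1 was called without cKO replicate 2 (0.0284) and with the block (0.0015).

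Of 11 nucleolar partners of nucleolin, 8 were below 0 (median -0.06), and 1 had an unadjusted p below 0.05 (11.9% of all tested genes). None passed the threshold in the same 3 tools (DESeq2 gave no adjusted p to 5). Nop10, a small protein of box H/ACA particles, was at 2.59, 2.32 and 2.77 CPM in cKO and 0.756, 0.836 and 1.09 CPM in WT (log2 fold change 1.48, adjusted p = 0.183), and Nop56 differed by -0.24 in log2 (adjusted p = 0.466).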
